A study of Mus musculus with 22 samples.

Results

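Transcripts of 7 enzymes that make NADPH or feed the pentose phosphate and glucuronate pathways were followed across 22 mouse livers: G6pdx, Pgd, Taldo1, Tkt, Me1, Idh1 and Ugdh. They were chosen by name as enzymes of the pentose phosphate pathway and the cytosolic makers of NADPH, together with Ugdh, and are 7 of the 18716 rows of the deposited table. All livers carry the label Fah-/-, a genotype without fumarylacetoacetate hydrolase, which ends tyrosine breakdown. D0 names 7 livers taken on day 0 and labelled normal liver. The other 15 came from mice that had received hepatocytes labelled td and were sampled 28 days after NTBC, the drug that protects livers lacking Fah by blocking an earlier enzyme of tyrosine breakdown, had been withdrawn. Of these, 8 livers had been given vehicle and 7 an agent labelled YC. The Fah-/- genotype is thus shared by all groups, controls included, and the transplant and the withdrawal of NTBC are shared by vehicle and YC livers. The labels give no sex, age, strain, dose of YC or fate of the host hepatocytes, and do not say that each library came from a separate mouse; p-values therefore measure a spread between libraries that may be partly technical.

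The oxidative branch of the pentose phosphate pathway turns glucose 6-phosphate into ribulose 5-phosphate and reduces NADP to NADPH in the steps made by G6pdx and Pgd. The non-oxidative branch, run by transketolase and transaldolase, rearranges sugar phosphates in both directions, so carbon can return to glycolysis or be drawn off as ribose phosphate. Malic enzyme and cytosolic isocitrate dehydrogenase are further sources of NADPH outside mitochondria. In liver, NADPH drives fatty acid and sterol synthesis, cytochrome P450 reactions and the reduction of glutathione and thioredoxin. Ugdh makes no NADPH: it oxidizes UDP-glucose to UDP-glucuronate with NAD, and liver spends UDP-glucuronate on the glucuronidation of bilirubin, steroids and drugs. G6pdx, Pgd, Taldo1, Tkt and Me1 are textbook targets of NRF2, a transcription factor that binds antioxidant response elements, and Me1 and G6pdx also belong to the lipogenic enzymes of liver.

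The sequence just upstream of the start site is shown for 3 members that were lower in vehicle than in D0 livers and have the core letters of an antioxidant response element there, and for Taldo1, the member that was higher. Each stretch runs 5′ to 3′ on the gene's strand from position -150 to position 9 around a RefSeq start (GRCm38.p6, the build also called mm10). The Ugdh stretch is chr5:65435834-65435992 on the minus strand, Me1 is chr9:86695906-86696064 on the minus strand, G6pdx is chrX:74428872-74429030 on the minus strand and Taldo1 is chr7:141392010-141392168 on the plus strand. Capitals mark each match to TGACNNNGC on either strand, where N is any base.
Ugdh: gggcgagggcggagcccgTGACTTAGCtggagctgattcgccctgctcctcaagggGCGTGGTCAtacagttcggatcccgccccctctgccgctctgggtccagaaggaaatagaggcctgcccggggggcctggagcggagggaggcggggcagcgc
Me1: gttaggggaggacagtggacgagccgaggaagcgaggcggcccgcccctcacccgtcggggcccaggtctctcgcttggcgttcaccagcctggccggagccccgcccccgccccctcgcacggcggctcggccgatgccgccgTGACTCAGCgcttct
G6pdx: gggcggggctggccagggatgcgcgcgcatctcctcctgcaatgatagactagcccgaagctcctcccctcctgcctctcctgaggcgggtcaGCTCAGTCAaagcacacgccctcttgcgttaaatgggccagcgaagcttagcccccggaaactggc
Taldo1: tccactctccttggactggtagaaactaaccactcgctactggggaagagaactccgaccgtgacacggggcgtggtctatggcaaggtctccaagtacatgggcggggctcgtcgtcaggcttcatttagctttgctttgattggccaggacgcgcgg
In the window from 250 bases before to 50 after the start, Ugdh held this pattern at -132 to -124 as TGACTTAGC and, on the other strand, at -94 to -86 as GCGTGGTCA. Me1 held TGACTCAGC across the start itself, from -6 to 3. G6pdx held GCTCAGTCA, the pattern on the other strand, at -57 to -49. Of 2 RefSeq starts of Pgd, the one further inside the gene had TGACATTGC at 4 to 12 and the other had none. No match lay in the windows of Taldo1, Tkt and Idh1 or in the second window of Me1. Tkt and Idh1, which have no match, and Pgd were also lower in vehicle than in D0 livers, and their sequences are not shown. Over all 32851 RefSeq promoter windows of this length, 12.4% held the pattern. The E-box letters CACGTG were in 0 of the 10 windows of the members and in 7.15% of all windows. A match is a description of letters and shows no binding.

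Fah was checked first because the genotype names it. It ranged from 21.1 to 38.7 RPKM (reads divided by gene length and library depth) in D0, 270.8 to 542 in vehicle and 31.5 to 407 in YC livers. Among YC livers, YC 7 (31.5 RPKM) and YC 6 (41.3 RPKM) had the least Fah, close to D0 livers, and YC 4 (407 RPKM) the most. These 3 libraries were kept as labelled; whether their labels are right could not be checked here, and the YC means and the relations with Fah depend on it. The RPKM of 10 hepatocyte markers, Alb and Ttr among them, were summed for each liver. The sum was 51590 to 70170 in D0, 64360 to 97190 in vehicle and 33170 to 68110 in YC livers, with no marker at 0 in any group. Most of it was Alb, which averaged 43090, 50800 and 24640 RPKM in the same order, so the sum mainly follows Alb. Between YC and vehicle livers 4 of the 10 markers were lower and 6 were not called. Transcripts from the Y chromosome (Ddx3y, Eif2s3y, Kdm5d and Uty, summed, above 1 RPKM) were present in 0 of 7 D0, 8 of 8 vehicle and 3 of 7 YC livers, the 3 being YC 1, YC 2 and YC 3. D0 and vehicle livers therefore differ in this as well as in transplant, NTBC and time, and these cannot be told apart. In whole liver, fewer cells of a type and less RNA per cell cannot be told apart either. The median log2 difference of all 12537 genes tested was 0.309 between YC and vehicle livers, so changes of that contrast are read beside it; it was 0.005 between vehicle and D0 and 0.253 between YC and D0 livers.

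Vehicle livers held less of 6 of the 7 transcripts than D0 livers and more of Taldo1. Ugdh fell most, 4.11-fold, followed by Pgd, G6pdx and Me1, and the ranges of these 4 genes in vehicle and D0 livers did not overlap. Against these counts, 58.1% of all genes tested were called in this contrast at a limma adjusted p under 0.05, 28.2% as higher and 29.9% as lower, and 22.9% had ranges that did not overlap, 11.2% as higher and 11.7% as lower. The median log2 difference of the 7 members was -1.405.

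YC livers held more of 6 of the 7 transcripts than vehicle livers, and Idh1 did not pass the test. Pgd differed most, 2.90-fold, then Ugdh, 2.42-fold. In the same contrast 50.7% of all genes were called, 44.6% as higher and 6.14% as lower, and the members' median log2 difference of 0.865 stands beside the 0.309 of all genes. When libraries were scaled by the median ratio of their genes, which brings the median of all genes to 0.018, 3 members were called higher (Pgd, Tkt and Ugdh) and the calls over all genes went from 5587 higher and 770 lower to 2336 higher and 2076 lower. No member's YC range was clear of the vehicle range, where 7.08% of all genes had ranges that did not overlap, 6.52% as higher and 0.558% as lower. YC 4 was the lowest of the YC livers for all 7 members, and the other 6 YC livers were above every vehicle liver for Pgd, Taldo1, Tkt, Me1 and Ugdh. That description leaves out the lowest YC liver, and the share of all genes that would meet it was not computed. The margin was small for Taldo1 (288.8 RPKM in YC 5, 288.1 in vehicle 3) and Me1 (83.8 RPKM in YC 5, 82.3 in vehicle 5).

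Against D0 livers, YC livers were higher in Taldo1 and lower in G6pdx, Me1, Idh1 and Ugdh, while Pgd and Tkt were not called. The background in this contrast was 53.4% called, 41.2% higher and 12.3% lower, with 23.6% of genes not overlapping, 19.4% as higher and 4.17% as lower. Of the members, Taldo1 and Me1 had ranges that did not overlap. Each group serves in 2 of the 3 contrasts, so their values share samples and are given side by side only. Among livers without Y-linked transcripts, a comparison added after seeing the data, Taldo1 and Me1 were called, while G6pdx (-0.67, limma adjusted p = 0.263), Idh1 (-0.31, limma adjusted p = 0.284) and Ugdh (-0.62, limma adjusted p = 0.101) were not. Without YC 3 or without YC 4 the count of members called in this contrast was 3 in place of 5.

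**Figure D1:**
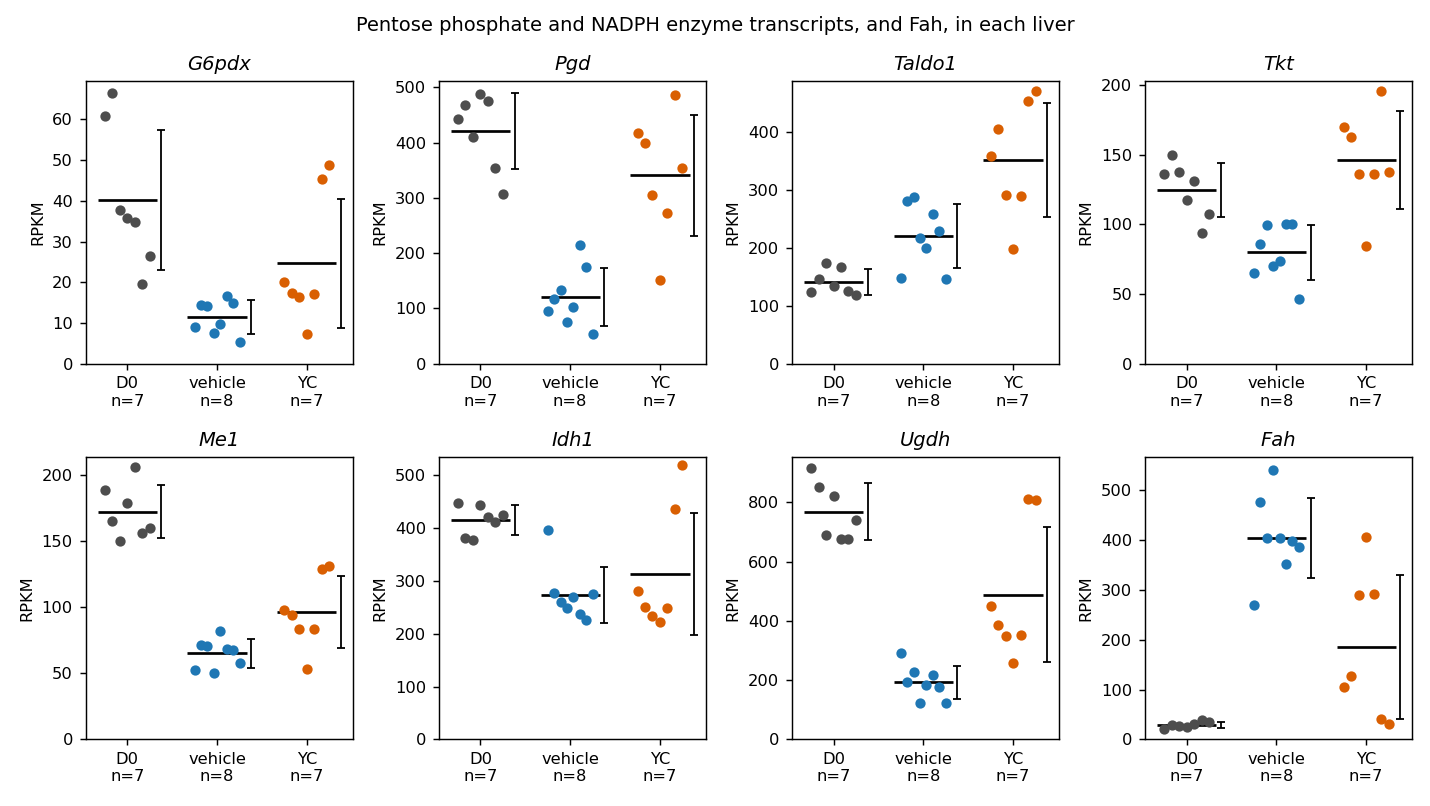
Level of each enzyme transcript and of Fah in every liver (vertical axis, RPKM, from 0) by group, with 7 D0, 8 vehicle and 7 YC livers; lines are means and bars beside the points are 1 SD. In Pgd, Me1 and Ugdh all vehicle points lie under all D0 points, and in Taldo1 the order of the group means is D0, vehicle, YC.

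**Figure D2:**
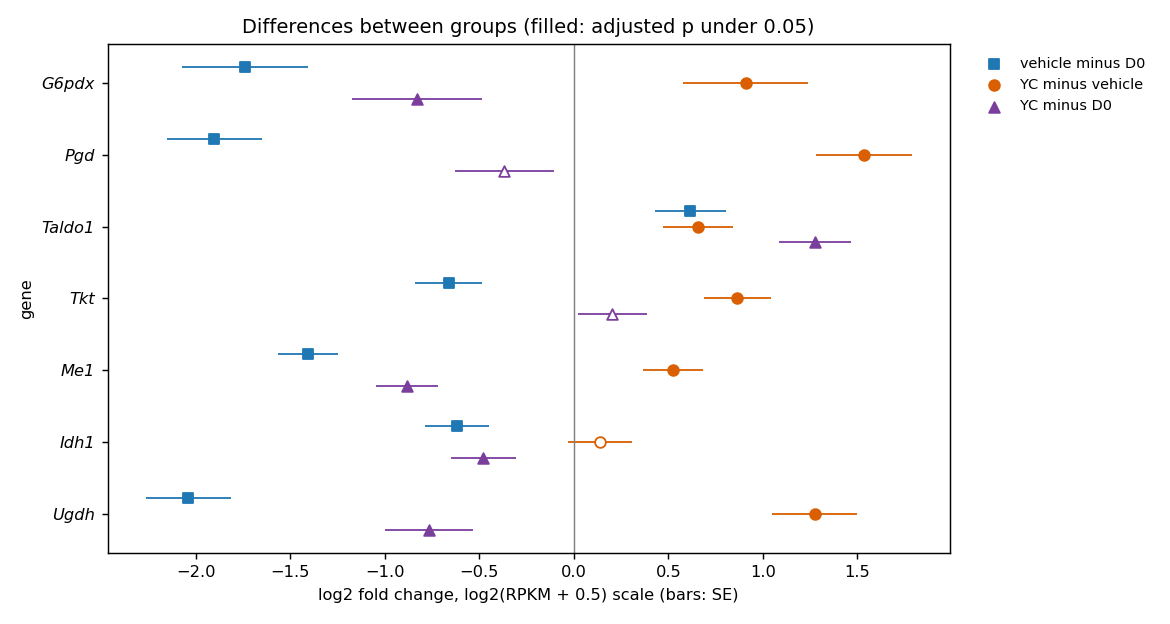
Difference between groups for each member (horizontal axis, log2 fold change on the log2(RPKM + 0.5) scale, bars SE), with filled symbols for a limma adjusted p under 0.05. Taldo1 alone lies to the right of 0 in all 3 contrasts with filled symbols, and the open symbols are Idh1 for YC minus vehicle and Pgd and Tkt for YC minus D0.

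G6pdx encodes glucose-6-phosphate dehydrogenase, the first and rate-limiting step of the oxidative branch (ENSMUSG00000031400, chromosome X, 74409483 to 74429194, minus strand, mm10). Its level had a low of 19.6, a median of 35.7 and a high of 66.4 RPKM in D0 livers. In vehicle livers the same values were 5.35, 12.0 and 16.7 RPKM, and in YC livers 7.38, 17.2 and 48.9 RPKM. Every vehicle liver was under every D0 liver, while the YC livers were split, with YC 6 and YC 7 at 45.3 and 48.9 RPKM and the other 5 between 7.38 and 20.2 RPKM. The mean was 40.2 ± 17.2 RPKM in D0 (SD, n = 7), 11.5 ± 4.06 in vehicle (SD, n = 8) and 24.6 ± 15.9 in YC livers (SD, n = 7). G6pdx was 3.34-fold lower in vehicle than in D0 livers (log2 difference -1.74 ± 0.33, SE, limma adjusted p = 0.000119). YC livers held 1.88-fold more G6pdx than vehicle livers (0.91 ± 0.33, SE, limma adjusted p = 0.0259). This call was lost without YC 6 and YC 7, where the difference was 0.44 (limma adjusted p = 0.215), with median-ratio scaling (0.58, limma adjusted p = 0.175) and with quantile normalization (0.58, limma adjusted p = 0.172). Leaving out 1 library ended it too: YC 6 (0.72, limma adjusted p = 0.0696), YC 7 (0.705, limma adjusted p = 0.0707), vehicle 4 (0.84, limma adjusted p = 0.0507) or vehicle 8 (0.77, limma adjusted p = 0.0566). G6pdx lies on the X chromosome, and among livers with Y-linked transcripts alone the YC minus vehicle difference was 0.70 (limma adjusted p = 0.0629). The difference from D0 livers, -0.83 ± 0.34 (SE, limma adjusted p = 0.0444), was lost when any of D0 1 to D0 5 or YC 1 to YC 5 was left out, with adjusted p from 0.0558 to 0.115. G6pd2, an intronless copy of the gene on chromosome 5, was at a mean of at most 0.00171 RPKM in any group.

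Pgd encodes 6-phosphogluconate dehydrogenase, the second NADPH-making step of the oxidative branch (ENSMUSG00000028961, chromosome 4, 149149991 to 149166771, minus strand). D0 livers had a low of 306, a median of 443 and a high of 489 RPKM. Vehicle livers had 53.3, 109.8 and 216 RPKM, and YC livers 152, 355 and 485 RPKM in the same order. All vehicle livers were under all D0 livers, and 6 of 7 YC livers were above the highest vehicle liver, YC 4 at 152 RPKM being the exception. The mean was 421 ± 68.4 RPKM in D0 (SD, n = 7), 121 ± 52.9 in vehicle (SD, n = 8) and 341 ± 109 in YC livers (SD, n = 7). Pgd was 3.74-fold lower in vehicle than in D0 livers (log2 difference -1.90 ± 0.25, SE, limma adjusted p = 1.44e-06) and 2.90-fold higher in YC than in vehicle livers (1.53 ± 0.25, SE, limma adjusted p = 3.94e-05). In 4 of 7 YC livers Pgd lay within the D0 range, and the YC minus D0 difference of -0.37 ± 0.26 (SE) had a limma adjusted p of 0.242. That difference was -0.19 without YC 4, and it was called with median-ratio scaling, at -0.68 (limma adjusted p = 0.026). The ratio of Pgd to G6pdx RPKM had a median of 11.6 in D0, 10.2 in vehicle and 18.6 in YC livers.

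Taldo1 encodes transaldolase of the non-oxidative branch (ENSMUSG00000025503, chromosome 7, 141392199 to 141402968, plus strand), and its order of groups was not that of the other members. D0 livers had a low of 118, a median of 134 and a high of 173 RPKM. Vehicle livers had 146, 223 and 288 RPKM, and YC livers 198, 357 and 469.5 RPKM. YC livers were all above the D0 range, 6 of 7 were above the vehicle range and vehicle livers overlapped D0 livers. Taldo1 averaged 141 ± 21.7 RPKM in D0 (SD, n = 7), 221 ± 54.9 in vehicle (SD, n = 8) and 351 ± 98.6 in YC livers (SD, n = 7). Vehicle livers held 1.53-fold more than D0 livers (log2 difference 0.62 ± 0.19, SE, limma adjusted p = 0.00664) and 1.58-fold higher in YC than in vehicle livers (0.66 ± 0.19, SE, limma adjusted p = 0.00527). With median-ratio scaling the second difference was 0.32 (limma adjusted p = 0.171). Between YC and D0 livers the difference was 2.42-fold (1.28 ± 0.19, SE, limma adjusted p = 6.36e-06).

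Tkt encodes transketolase, the partner of transaldolase (ENSMUSG00000021957, chromosome 14, 30548359 to 30574720, plus strand). Its low, median and high were 93.8, 131 and 149 RPKM in D0 livers, 46.5, 79.7 and 100 in vehicle livers and 84.4, 138 and 195 in YC livers. The vehicle and D0 ranges overlapped at their ends, and 6 of 7 YC livers were above the highest vehicle liver. Tkt averaged 125 ± 19.4 RPKM in D0 (SD, n = 7), 80.1 ± 19.7 in vehicle (SD, n = 8) and 146 ± 34.9 in YC livers (SD, n = 7). It was 1.58-fold lower in vehicle than in D0 livers (log2 difference -0.66 ± 0.18, SE, limma adjusted p = 0.00273) and 1.82-fold higher in YC than in vehicle livers (0.86 ± 0.18, SE, limma adjusted p = 0.000363). YC and D0 livers differed by 0.20 ± 0.18 (SE, limma adjusted p = 0.36), and with array weights, which let noisy libraries count less, by 0.33 (limma adjusted p = 0.0364). The difference was 0.33 without YC 4, 0.13 without YC 6 and -0.11 with median-ratio scaling, none of them called. The ratio of Taldo1 to Tkt RPKM was 0.914 to 1.34 with D0, 2.28 to 3.27 with vehicle and 2.10 to 3.41 with YC, so both transplanted groups were above the D0 range in every liver.

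Me1 encodes the cytosolic malic enzyme, which makes NADPH while turning malate into pyruvate (ENSMUSG00000032418, chromosome 9, 86581371 to 86695953, minus strand). The low, median and high were 150.2, 165 and 206 RPKM in D0 livers, 50.2, 67.8 and 82.3 in vehicle livers and 53.2, 94.2 and 131 in YC livers. All 7 YC livers were under the D0 range, and 6 of 7 were above the vehicle range. Me1 averaged 172 ± 20.1 RPKM in D0 (SD, n = 7), 65.1 ± 10.8 in vehicle (SD, n = 8) and 96.2 ± 27.3 in YC livers (SD, n = 7). It was 2.65-fold lower in vehicle than in D0 livers (log2 difference -1.40 ± 0.16, SE, limma adjusted p = 1.73e-07), 1.44-fold higher in YC than in vehicle livers (0.52 ± 0.16, SE, limma adjusted p = 0.00885) and 1.84-fold lower in YC than in D0 livers (-0.88 ± 0.16, SE, limma adjusted p = 9.01e-05). The second difference was 0.33 without YC 6 and YC 7 (limma adjusted p = 0.0657) and 0.18 with median-ratio scaling (limma adjusted p = 0.37).

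Idh1 encodes the cytosolic and peroxisomal NADP isocitrate dehydrogenase (ENSMUSG00000025950, chromosome 1, 65158616 to 65186500, minus strand). Its low, median and high were 376, 421 and 447 RPKM in D0 livers, 226, 264 and 397 in vehicle livers and 223, 251 and 518 in YC livers. Vehicle 1, at 397 RPKM, lay within the D0 range, and the other 7 vehicle livers were between 226 and 277 RPKM. Of the YC livers, YC 6 and YC 7 had 435 and 518 RPKM and the other 5 had 223 to 281 RPKM, overlapping the vehicle livers. Idh1 averaged 415 ± 27.8 RPKM in D0 (SD, n = 7), 274 ± 52.8 in vehicle (SD, n = 8) and 313 ± 116 in YC livers (SD, n = 7). It was 1.53-fold lower in vehicle than in D0 livers (log2 difference -0.62 ± 0.17, SE, limma adjusted p = 0.00311). YC and vehicle livers differed by 0.14 ± 0.17 (SE, limma adjusted p = 0.504), and without YC 6 and YC 7 by -0.13 (limma adjusted p = 0.379). The YC minus D0 difference of -0.48 ± 0.17 (SE, limma adjusted p = 0.0228) was not called without YC 3 (limma adjusted p = 0.0539) or without YC 4 (limma adjusted p = 0.0512).

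Ugdh encodes UDP-glucose dehydrogenase (ENSMUSG00000029201, chromosome 5, 65413221 to 65435949, minus strand) and had the highest level of the 7 in D0 and YC livers. Its low, median and high were 674, 741 and 914 RPKM in D0 livers, 122, 189 and 293 in vehicle livers and 259, 387 and 812 in YC livers. Every vehicle liver was far under the D0 range, and 6 of 7 YC livers were above every vehicle liver. YC 6 and YC 7, at 812 and 808.5 RPKM, lay within the D0 range and the other 5 YC livers lay under it. Ugdh averaged 767 ± 96.1 RPKM in D0 (SD, n = 7), 192 ± 56.0 in vehicle (SD, n = 8) and 488 ± 227 in YC livers (SD, n = 7). It was 4.11-fold lower in vehicle than in D0 livers (log2 difference -2.04 ± 0.22, SE, limma adjusted p = 1.14e-07), 2.42-fold higher in YC than in vehicle livers (1.27 ± 0.22, SE, limma adjusted p = 8.35e-05) and 1.70-fold lower in YC than in D0 livers (-0.76 ± 0.23, SE, limma adjusted p = 0.00752).

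Since RPKM are scaled to gene length, levels can be set against each other within a liver. The 7 transcripts together made up 0.328% to 0.438% of the summed RPKM of a D0 liver, 0.126% to 0.204% of a vehicle liver and 0.184% to 0.437% of a YC liver. In D0 livers the order of mean levels was Ugdh, Pgd, Idh1, Me1, Taldo1, Tkt and G6pdx, and neighbours had separate ranges only between Ugdh and Pgd, Idh1 and Me1, and Tkt and G6pdx. In vehicle livers it was Idh1, Taldo1, Ugdh, Pgd, Tkt, Me1 and G6pdx, with separate ranges only between Me1 and G6pdx, although Ugdh was above Pgd, and Pgd above Tkt, in 8 of 8 livers. In YC livers the order was Ugdh, Taldo1, Pgd, Idh1, Tkt, Me1 and G6pdx, with separate ranges between Idh1 and Tkt and between Me1 and G6pdx. Pgd was 2.37 to 3.66 times Taldo1 at D0, 0.351 to 0.833 times with vehicle and 0.755 to 1.17 times with YC.

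Apart from the pseudocount of 0.5, ratios of 2 members in the same liver do not change when a library is multiplied by 1 factor. Quantile normalization is not such a scaling, and the pairs were not tested under it. The 21 possible pairs were compared between YC and vehicle livers by exact two-sided permutation tests, for which the smallest possible p is 0.000155. After Benjamini-Hochberg adjustment over the 21 pairs, 8 differed, and Pgd was part of 5 of them. Relative to Pgd, YC livers held less Idh1 (log2 difference of the ratio Pgd to Idh1 1.395 ± 0.33, SE, exact permutation p = 0.00202, adjusted 0.00848), less Me1 (1.01 ± 0.22, exact p = 0.0014, adjusted 0.00848), less Taldo1 (0.88 ± 0.19, exact p = 0.00186, adjusted 0.00848), and less Tkt (0.67 ± 0.13, exact p = 0.00109, adjusted 0.00848). The ratio G6pdx to Pgd was lower too, by -0.63 ± 0.24 (SE, exact permutation p = 0.0174, adjusted 0.0461). The ratio with the smallest p was Idh1 to Ugdh, which differed by -1.14 ± 0.15, SE (exact p = 0.000155, adjusted 0.00326). Me1 to Ugdh differed by -0.75 ± 0.19 (exact p = 0.00342, adjusted 0.012) and Tkt to Idh1 by 0.73 ± 0.26 (exact p = 0.0176, adjusted 0.0461). The last of these and G6pdx to Pgd were the least secure, since each was lost in 11 of 15 tests that left out 1 library (adjusted exact permutation p up to 0.093) and with a pseudocount of 0.1 (adjusted 0.0511). Me1 to Ugdh was lost among livers with Y-linked transcripts (adjusted exact p = 0.0909). The other 5 pairs were called in all 20 settings tried. For Pgd and Ugdh, the 2 members with the largest rise, the ratio differed by 0.26 (adjusted exact permutation p = 0.341), and for Taldo1 and Tkt by -0.21 (adjusted p = 0.137), which does not show that they changed alike.

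Fah varied 12.9-fold among YC livers, and the members were set against it within each transplanted group. In the 7 YC livers all 7 members had negative correlations with Fah on the log2 scale. Me1 had Pearson r = -0.918 (exact permutation p = 0.000198, adjusted over 14 relations 0.00185) and Spearman rho = -1, the order of Me1 being the exact reverse of that of Fah. Ugdh had r = -0.971 (exact p = 0.000794, adjusted 0.00278; rho = -0.929), Idh1 r = -0.946 (exact p = 0.000397, adjusted 0.00185; rho = -0.964), G6pdx r = -0.933 (exact p = 0.000397, adjusted 0.00185; rho = -0.964) and Taldo1 r = -0.914 (exact p = 0.00337, adjusted 0.00944; rho = -0.964). The exact permutation p of rho was 0.000397 for Me1, 0.00675 for Ugdh and 0.00278 for each of Idh1, G6pdx and Taldo1, or 0.00556, 0.0189 and 0.00972 after adjustment. Pgd (r = -0.741, exact p = 0.0431, adjusted 0.1) and Tkt (r = -0.642, exact p = 0.115, adjusted 0.197) did not pass after adjustment, with rho = -0.786 for each (exact p = 0.048, adjusted 0.096). YC 7 was the library that departed, with less Pgd and Tkt than YC 6 at a lower level of Fah. Without YC 4 and YC 7, the livers farthest from the median of Fah, r over the other 5 was between -0.888 (G6pdx) and -0.995 (Tkt).

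These relations are not particular to the 7 enzymes: among YC livers 13.0% of all genes had an r with Fah at or below -0.9, as did 5 members, and 30.9% had one at or below -0.7, as did 6. In the 8 vehicle livers no relation passed, with Ugdh closest (r = -0.698, exact permutation p = 0.0509, adjusted 0.102) and r = 0.035 for Ugdh without vehicle 1 and vehicle 4. The YC livers with and without Y-linked transcripts number 3 and 4, too few for a relation within each, and for all 7 members the range of the 3 lay inside the range of the 4. Whether the difference between the r of YC and of vehicle livers exceeds chance was not tested.

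**Figure D3:**
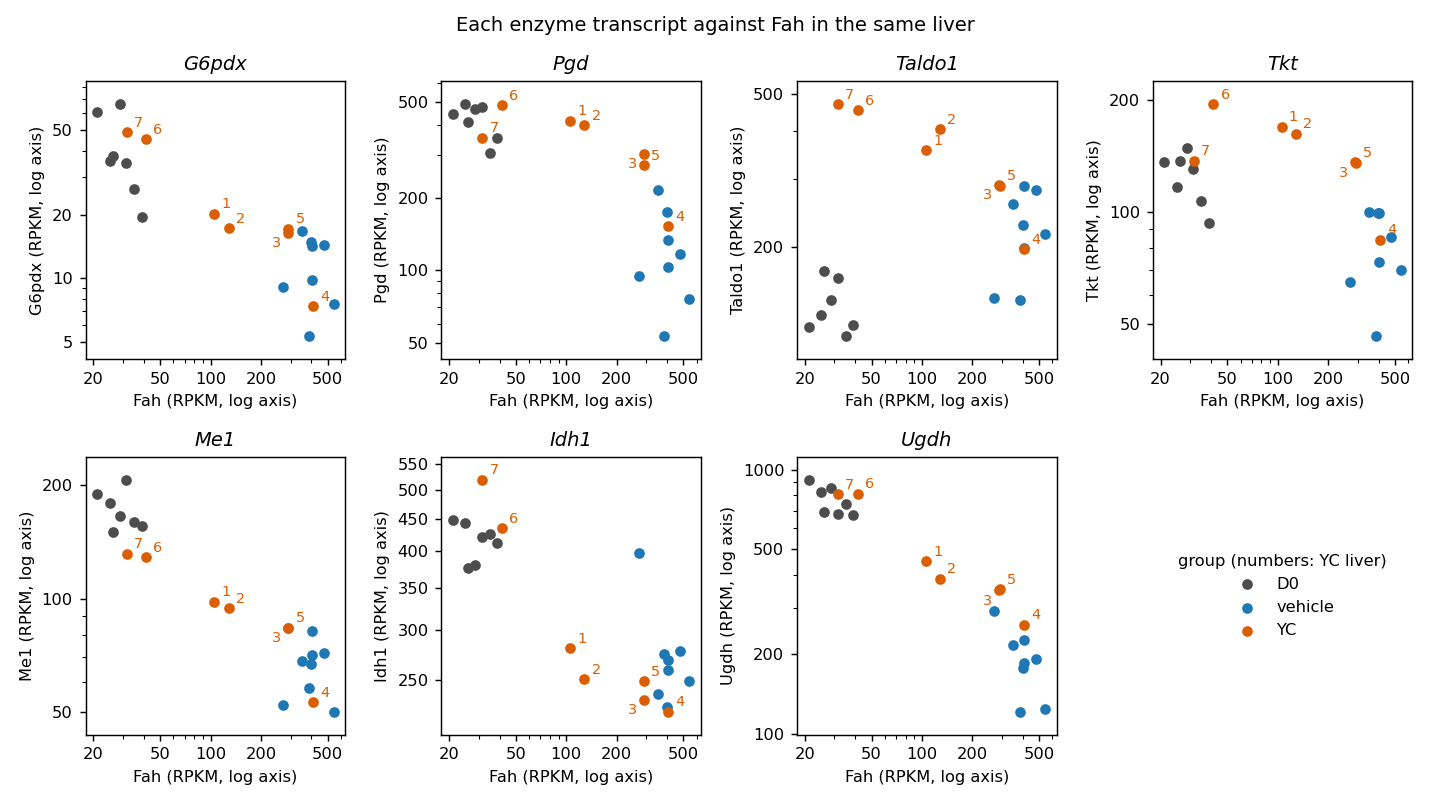
Each enzyme transcript (vertical axis, RPKM, log scale) against Fah in the same liver (horizontal axis, RPKM, log scale), with 7 D0, 8 vehicle and 7 YC livers, the latter numbered by replicate. YC 6 and YC 7 lie near the D0 livers and YC 4 among the vehicle livers in Ugdh and G6pdx, YC 4 being just under the vehicle livers in Idh1, while in Taldo1 YC 6 and YC 7 lie far above the D0 livers at a like level of Fah.

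The remaining genes of the oxidative branch were measured too. All 4 tested genes of this list, members included, differed between YC and vehicle livers, 3 higher and 1 lower. The median log2 difference was 1.202, beside 0.309 for all genes. With median-ratio scaling, with quantile normalization and without YC 6 and YC 7, 2 were higher and 1 lower. With equal totals 3 were higher and 1 lower, and among livers with Y-linked transcripts 2 were higher and none was called lower. All 4 also differed between vehicle and D0 livers, 1 higher and 3 lower (median -1.631). Of all genes, 50.7% were called in the first contrast and 58.1% in the second. H6pd, the enzyme that makes NADPH from glucose 6-phosphate inside the endoplasmic reticulum, averaged 152 ± 35.3, 55.7 ± 23.6 and 153.5 ± 51.7 RPKM (SD) in the 7 D0, 8 vehicle and 7 YC livers and was higher in YC than vehicle livers by 1.496 ± 0.23 on the log2 scale (SE, limma adjusted p = 2.34e-05). Pgls, which opens the lactone between the steps of G6pdx and Pgd, went the other way, with means of 72.1, 123 and 84.2 RPKM and a YC minus vehicle difference of -0.51 ± 0.15 (SE, limma adjusted p = 0.00761). Among livers with Y-linked transcripts that difference was -0.58 (limma adjusted p = 0.052).

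Of 8 tested genes of the non-oxidative branch and ribose use, 3 were higher and 1 lower in YC than in vehicle livers. That share of genes called is close to the 50.7% of all genes. Between vehicle and D0 livers 1 of the 8 was higher and 4 were lower, where 28.2% of all genes were higher and 29.9% lower. With median-ratio scaling, as with quantile normalization, the YC minus vehicle balance turned to 2 higher and 3 lower (medians -0.005 and -0.046). Rpia, which interconverts ribose and ribulose phosphates, averaged 10.8, 4.99 and 9.21 RPKM in D0, vehicle and YC livers (YC minus vehicle 0.80 ± 0.20, SE, limma adjusted p = 0.00176), a call lost with quantile normalization (0.41, limma adjusted p = 0.105). Shpk, a kinase that makes sedoheptulose phosphate, was lower by -0.69 ± 0.17 (SE). Prps1, which commits ribose phosphate to nucleotide synthesis, averaged 28.5 RPKM in D0, 16.4 in vehicle and 15.8 in YC livers; it differed by -0.09 ± 0.13 between YC and vehicle livers (limma adjusted p = 0.587) and by -0.79 ± 0.13 between vehicle and D0 livers (limma adjusted p = 1.93e-05). The first of these was called with median-ratio scaling, at -0.42 (limma adjusted p = 0.0201), and with quantile normalization, at -0.42 (limma adjusted p = 0.0163). So it was without YC 6 and YC 7 (-0.28, limma adjusted p = 0.0223) and among livers with Y-linked transcripts (-0.40, limma adjusted p = 0.0249).

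The list drawn up as other NADPH makers, which also holds the NAD kinases Nadk and Nadk2, did not move as 1 group. Transcript levels do not show whether a listed enzyme, Me2 and Mthfd2 among them, used NAD or NADP. Of its 11 tested genes, Me1 and Idh1 included, 4 were higher and 2 lower in YC than in vehicle livers. Over all genes tested, the shares called in this contrast were 44.6% upward and 6.14% downward. The list's median was 0.139, under the 0.309 of all genes. With median-ratio scaling the balance turned, with 2 higher and 4 lower (median -0.202), and with equal totals 4 were higher and none was called lower. The mitochondrial enzymes Me2 and Mthfd2 were higher by 0.96 ± 0.14 and 0.89 ± 0.14 (SE), from vehicle means of 1.95 and 1.78 RPKM to YC means of 4.24 and 3.83 RPKM. Mitochondrial Idh2 averaged 69.2, 141 and 101.5 RPKM in D0, vehicle and YC livers, lower in YC than vehicle livers by -0.63 ± 0.25 (SE, limma adjusted p = 0.0385) and higher in vehicle than D0 livers by 0.99 ± 0.25 (SE, limma adjusted p = 0.00156), the reverse of cytosolic Idh1 in the second contrast. Without YC 6 and YC 7 the first of these was -0.27 (limma adjusted p = 0.304). Nnt, the mitochondrial transhydrogenase, was lower by -0.49 ± 0.20 and Nadk2, the mitochondrial NAD kinase, higher by 0.42 ± 0.16 (SE); without YC 6 and YC 7 the values were -0.31 and 0.19, and neither was called. Aldh1l1, a folate enzyme that makes NADPH and the most abundant gene not called, differed by -0.53 ± 0.26 (SE, limma adjusted p = 0.0859), or -0.87 with median-ratio scaling (limma adjusted p = 0.0185).

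Around Ugdh, 5 of 11 tested genes of UDP-glucuronate and glucuronate metabolism were higher and 3 lower in YC than in vehicle livers, where 44.6% of all genes were higher and 6.14% lower. With median-ratio scaling 3 were higher and 3 lower (median 0.085). Ugp2, which makes the UDP-glucose that Ugdh uses, averaged 305.5, 186 and 388 RPKM in D0, vehicle and YC livers (YC minus vehicle 0.88 ± 0.23, SE, limma adjusted p = 0.00341; 0.54 with median-ratio scaling, adjusted p = 0.0711). Uxs1, which turns UDP-glucuronate into UDP-xylose, was higher by 1.12 ± 0.21 and the lysosomal glucuronidase Gusb by 0.67 ± 0.13 (SE). Rgn, the lactonase that mice use on the way from glucuronate to vitamin C, averaged 681, 632 and 195 RPKM and was lower in YC than vehicle livers by -2.34 ± 0.44 (SE, limma adjusted p = 0.00018). Gulo, the last enzyme of vitamin C synthesis, was lower by -0.94 ± 0.29 and Dcxr, a xylulose reductase, by -0.51 ± 0.20 (SE), and neither was called without YC 6 and YC 7 (-0.54 and -0.50). Cryl1, the most abundant gene not called, averaged 42.7 RPKM in vehicle and 42.2 RPKM in YC livers.

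**Figure D4:**
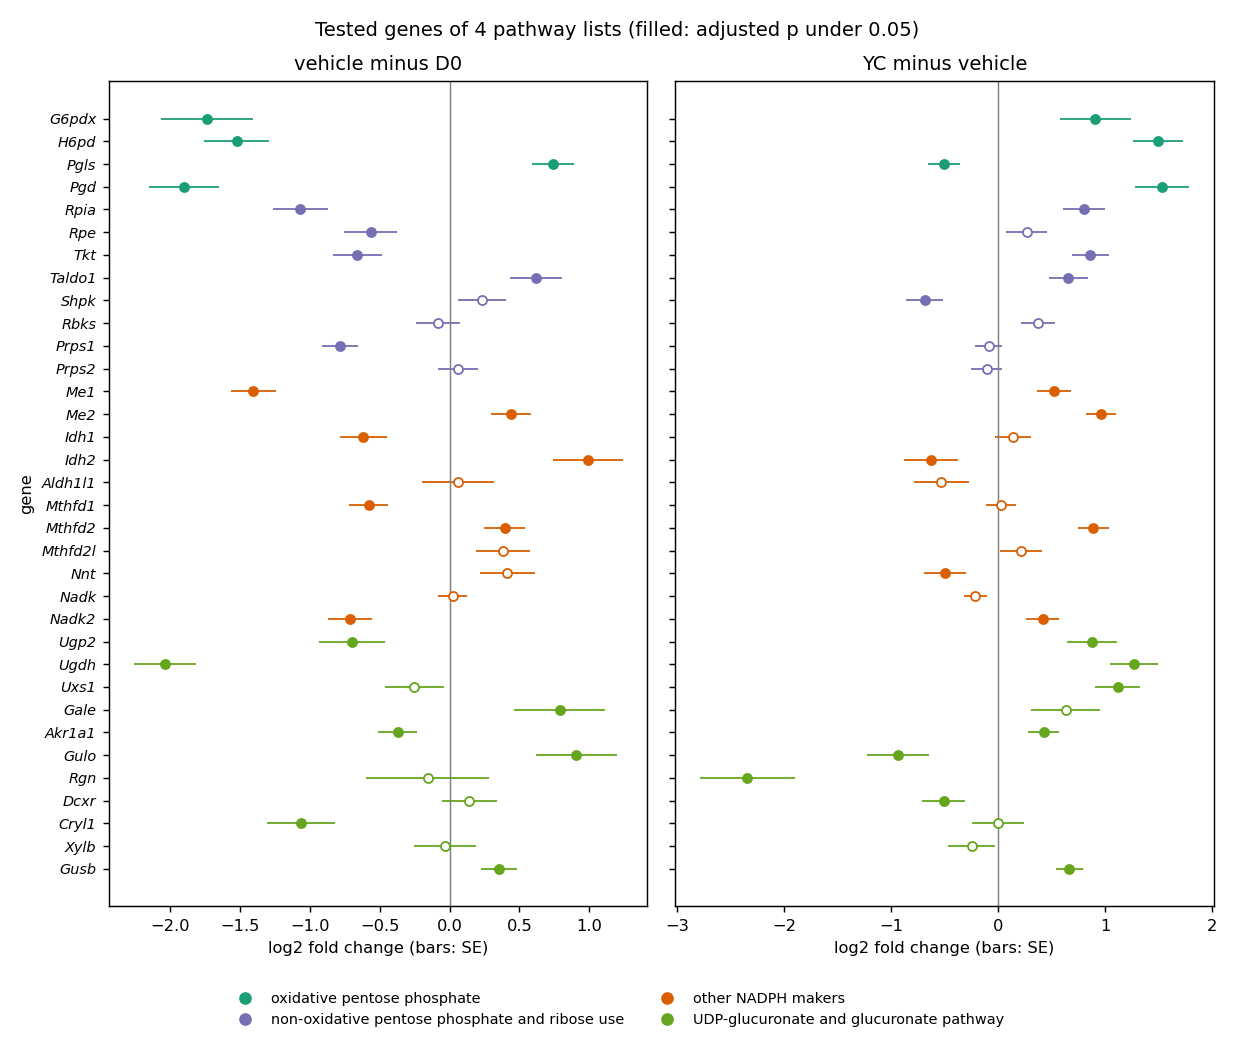
Differences for the tested genes of 4 pathway lists (vertical axis) on the log2(RPKM + 0.5) scale with SE (horizontal axis), vehicle minus D0 on the left and YC minus vehicle on the right, with filled points for a limma adjusted p under 0.05. G6pdx, H6pd, Pgd and Ugdh lie furthest to the left in the left panel, and Pgls and Rgn lie on the other side from them in the right panel.

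Enzymes that spend NADPH on reduction were mostly higher under YC than under vehicle, 8 of 12 against 2 lower, with a median of 1.191. Of all genes 44.6% were higher and 6.14% lower in this contrast, with a median of 0.309. Against D0, 6 of the 12 were lower and 3 higher in vehicle livers, where 29.9% of all genes were lower and 28.2% higher. Gsr, which reduces glutathione with NADPH, averaged 172, 71.0 and 236 RPKM in D0, vehicle and YC livers (YC minus vehicle 1.55 ± 0.28, SE, limma adjusted p = 0.000105). Ptgr1, a reductase of prostaglandins and reactive alkenals, averaged 17.9, 25.6 and 216 RPKM, higher by 2.95 ± 0.37 (SE, limma adjusted p = 2.41e-06), and Cbr3, a carbonyl reductase, was higher by 1.49 ± 0.30 (SE). Txnrd2, mitochondrial thioredoxin reductase, was lower (-0.69 ± 0.19, SE, limma adjusted p = 0.00383). Akr1b3, aldose reductase, was not called (0.50 ± 0.27, SE).

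The NRF2 list of 13 genes overlaps the reductases but holds none of the 7 members. In vehicle livers 12 were lower and 1 higher than in D0 livers (median -1.476), where 29.9% of all genes were lower and 28.2% higher. Compared with vehicle livers, 12 were higher in YC livers and 1 was not called (median 1.315, all genes 0.309). In that contrast 44.6% of all genes were higher, and with median-ratio scaling 9 of the 13 were. Between YC and D0 livers, 1 was higher and 6 were lower, where 41.2% of all genes were higher and 12.3% lower. Hmox1, which breaks down heme, was higher in YC than vehicle livers by 2.42 ± 0.27 (SE, limma adjusted p = 6.61e-07) and Srxn1, which repairs oxidized peroxiredoxins, by 2.21 ± 0.38 (SE, limma adjusted p = 6.31e-05). Slc7a11, the cystine importer, averaged 2.42, 12.4 and 54.1 RPKM in D0, vehicle and YC livers and was the gene that was higher in vehicle than in D0 livers. Gstm1, the most abundant gene of the list, was not called between YC and vehicle livers (0.26 ± 0.29, SE).

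Fatty acid synthesis is another large use of NADPH in liver. Of 12 fatty acid synthesis genes, 4 had less transcript in YC than in vehicle livers and the other 8 were not called (median -0.529). In this contrast 6.14% of all genes were lower, and the median of all genes was 0.309. Between vehicle and D0 livers 2 of the 12 were higher and 1 lower, where 28.2% of all genes were higher and 29.9% lower. Without YC 6 and YC 7, 1 gene was higher and 2 were lower with YC than with vehicle (median -0.208). Scd1, the main stearoyl-CoA desaturase of liver, was lower in YC than vehicle livers by -2.83 ± 0.50 (SE, limma adjusted p = 9.65e-05) and Thrsp, a lipogenic regulator, by -2.36 ± 0.48 (SE, limma adjusted p = 0.000416). Fasn, the fatty acid synthase, was lower by -1.24 ± 0.45 (SE, limma adjusted p = 0.0256) but by -0.56 without YC 6 and YC 7 (limma adjusted p = 0.2). Slc25a1, which exports citrate from mitochondria, differed by -0.10 ± 0.18 (SE).

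At the entry to the pathway, 6 of 11 hexose phosphate genes were higher with YC than with vehicle and 1 was lower. Their median log2 difference was 0.436, against 0.309 for all genes. The background shares in that contrast were 44.6% called higher and 6.14% called lower. After median-ratio scaling 3 of the 11 were higher and 4 lower. The phosphoglucomutase genes Pgm1 and Pgm2 were higher by 0.97 ± 0.15 and 0.89 ± 0.15 (SE). Hk2, a hexokinase low in adult liver, went from 1.16 RPKM in vehicle to 2.19 RPKM in YC livers (0.87 ± 0.26, SE), a call lost with median-ratio scaling (0.62, limma adjusted p = 0.0622). Fbp1, a gluconeogenic phosphatase, was not called (-0.68 ± 0.30, SE) except with median-ratio scaling (-1.02, limma adjusted p = 0.0168). These lists are described by their counts, and no test was made of a list against other genes.

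Markers of other cells moved in the same contrasts, and their part in the members' values was not tested. Between vehicle and D0 livers 11 of 12 macrophage, 9 of 10 neutrophil and 5 of 7 bile duct markers were higher. So were 6 of 10 stellate cell, 4 of 7 lymphocyte, 3 of 4 erythroid and 3 of 9 endothelial markers. The share of all genes called higher in this contrast was 28.2%. The summed macrophage markers were 216.7 to 439 RPKM in D0, 843 to 2659 in vehicle and 574 to 1512 RPKM in YC livers, and the bile duct markers 33.1 to 57.4, 129 to 349 and 128 to 363 RPKM. Between YC and vehicle livers 5 of 10 neutrophil, 3 of 7 bile duct and 3 of 10 stellate cell markers were higher. The share of all genes called higher in this contrast was 44.6%. Median log2 differences were 0.88 for the neutrophil, 0.418 for the bile duct and 0.104 for the stellate cell list, beside 0.309 for all genes. Neutrophil sums were 46.2 to 169 RPKM in vehicle and 41.0 to 407 RPKM in YC livers. Lower were 3 of 12 macrophage, 5 of 7 lymphocyte and 4 of 10 hepatocyte markers, where 6.14% of all genes were lower. Of 9 endothelial markers 1 was higher and 2 were lower, and of 4 erythroid markers 1 was lower. These counts depended on scaling. With median-ratio scaling 3 neutrophil, 1 bile duct and 1 stellate cell markers were higher. Under it 7 macrophage, 5 lymphocyte, 5 hepatocyte, 5 endothelial, 1 stellate cell and 1 erythroid markers were lower. With quantile normalization 2 neutrophil, 1 bile duct and 1 stellate cell markers were higher. Under that setting 5 macrophage, 6 lymphocyte, 1 hepatocyte, 5 endothelial, 1 stellate cell and 2 erythroid markers were lower. No tested marker list had a gene at 0 in all livers of a group.

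The genes whose level ran most closely with each member were sought among the 7130 genes whose mean reached 5 RPKM, by Pearson r over all 22 livers, given as a description because the livers fall into 3 groups that set much of it. For Pgd these were Cyp2a5 (r = 0.974), a cytochrome P450, Slc48a1 (0.967), a heme transporter, and Mafk (0.967), a small Maf protein that pairs with NRF2. For Me1 they were Sqstm1 (0.958), an autophagy receptor, Txnrd1 (0.951), cytosolic thioredoxin reductase, and Ugt2b35 (0.948), a glucuronosyltransferase. For G6pdx they were Gsta4 (0.943), a glutathione transferase, Cluap1 (0.936) and Ypel5 (0.918). Ypel5 was also first for Ugdh (0.976), before Pak1ip1 (0.972) and D16Ertd472e (0.968). Taldo1 ran with Chmp4b (0.978), Gnb1 (0.965) and Oaz2 (0.963), Tkt with Nub1 (0.944), Abhd4 (0.935) and Cdc42se1 (0.934), and Idh1 with Bet1 (0.953), Otud6b (0.946) and Ccny (0.945). With group means removed, r of these genes with their members ran from 0.695 (Ugt2b35 with Me1) to 0.969 (Cyp2a5 with Pgd). Among the members, Pgd and Tkt had r = 0.904 over all livers and 0.912 within groups. G6pdx and Taldo1 had r = 0.00 over all livers and 0.743 within groups, since their group means were ordered differently while livers of 1 group that were high in one tended to be high in the other.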

How the data were processed

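Polyadenylated RNA of 22 livers was sequenced. The authors deposited 1 table of RPKM values, scaled to gene length and library size, for 18716 rows. TopHat 1.4.1, Cufflinks 1.3.0 and the build mm10 come from the submitters' processing notes. Annotation, filters and strand use were not given in the sources used here, and reads of overlapping genes cannot be separated. Depths estimated from the steps of low values were 50300000 to 82900000 reads or fragments.

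Genes reaching 0.5 RPKM in 7 or more libraries (12537, all 7 members among them) were fitted as log2(RPKM + 0.5) with limma 3.58.1 (trend, robust; statmod 1.5.0) in R 4.3.3, in 1 model of 3 groups without covariates. Two-sided p-values were adjusted over all genes tested (Benjamini-Hochberg). The log2 scale with this pseudocount understates changes of low genes. The script was tested on simulated data. Ratios and correlations used exact permutation tests in Python 3.11.15 with scipy 1.17.1, numpy 2.4.6, pandas 2.3.3 and matplotlib 3.10.9.

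Members and lists were chosen with earlier results of these data known. Named were all members, up to 3 called genes per direction and the most abundant uncalled gene of each pathway list for YC minus vehicle, and the 3 genes most correlated with each member; 2 genes that this rule names are not reported here. Coordinates are those of GENCODE M21; promoters are RefSeq's. Alternatives covered pseudocount, filter, scaling, weights, samples and replicate block.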

Additional observations from a re-analysis of the deposited data

Results flagged for a closer look

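Of the 21 combinations of member and group checked for a library far from the others, 1 stood out, where chance marks about 1 in 20 groups. Idh1 in vehicle 1 was 396.7 RPKM, and the next vehicle liver had 277 RPKM, a gap that makes up 0.701 of the range of the 8 vehicle livers. Vehicle 1 also had the lowest Fah of its group, 270.8 RPKM, and the highest Ugdh, 293 RPKM. Without vehicle 1 the YC minus vehicle difference of Idh1 was 0.22 (limma adjusted p = 0.252), against 0.14 with it.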

How the results depend on the processing

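Over 728 recomputed values of the members, 696 kept their direction where called and their side of the threshold, 32 did not and 0 called values reversed. The count of members called between YC and vehicle livers, 6, was 3 with median-ratio scaling, and leaving out 1 library gave 5 to 6. Between vehicle and D0 livers it was 7 in every leave-one-out fit. Between YC and D0 livers, 5 were called, 3 to 5 when 1 library was left out, and 2 when only libraries without Y-linked transcripts were used, an alternative added after seeing the data. The number of unequal pairs, 8, was 6 to 10 when 1 library was left out, and the number of relations with Fah, 5, was 5 to 6 over its settings. Replicate numbers of different groups did not pair the livers: same-numbered livers deviated together with r above 0.1 in 2 of 7, 2 of 7 and 1 of 7 pairs (YC with vehicle, vehicle with D0, YC with D0) and 1, 1 and 2 of 7 correlated best with their own number. With the replicate block, 5 members were called between YC and vehicle livers, G6pdx at 0.77 (limma adjusted p = 0.0632) being the one not called. The fit with only libraries holding Y-linked transcripts could not be run against D0 livers, none of which holds them. The cause of these changes was not tested. Precision rests on the spread between livers, with no counting interval.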
